A study of Mus musculus with 24 samples.

Results

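The 10 listed beta- and alpha-tubulin genes were followed in mouse muscle stem cells and their cultured progeny after loss of Chd4, the chromatin-remodelling ATPase of the NuRD complex. The genes were 7 beta-tubulins (Tubb4a, Tubb2a, Tubb2b, Tubb3, Tubb4b, Tubb5 and Tubb6) and 3 alpha-tubulins (Tuba1a, Tuba4a and Tuba8), taken by gene symbol from tables of 46078 genes. The set was chosen by the RPKM of Tubb4a in these same libraries, near 0 in control libraries and higher after Chd4 loss in both settings, so the values of Tubb4a are a description with no test. The in vitro libraries came from proliferating primary myoblasts that carried Chd4fl/fl alleles and were derived from satellite cells of uninjured muscle. These cells received adenovirus coding for Cre (AdCRE, 4 libraries) or for GFP (AdGFP, 4 libraries) and were collected 72 hours later. The in vivo libraries came from satellite cells, the stem cells of skeletal muscle, of Chd4dPax7ER mice (4 libraries) and Chd4fl/fl mice (4 libraries), sorted 3 days after an injury with cardiotoxin. The sort took SCA1-, CD45-, α7-integrin+ and CD34+ cells. All mice were C57BL/6 and 2 to 4 months old. In vitro the AdCRE libraries alone received Cre, so an effect of Cre cannot be told apart from one of Chd4 loss. In vivo the label of the Chd4dPax7ER group alone names Pax7ER, and the sources used here do not say if Chd4fl/fl mice had Cre or the same handling. The samples are numbered 1 to 4 within each group, and nothing in the labels ties a number to an animal or a culture of its own, so the spread behind the p-values may be technical. The 8 ATAC-seq samples of the study were not analysed here.

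Microtubules are polymers of alpha- and beta-tubulin dimers, and mammals encode each partner in several genes whose proteins, called isotypes, differ mostly in their C-terminal tails. Isotypes are used in different proportions in different cell types. TUBB3 is known as a neuronal isotype, TUBB4A is known from the brain, where oligodendrocytes use it strongly, and TUBB5 is widespread and abundant in dividing cells. Differentiating muscle cells rearrange their microtubules from a centrosomal array to one that starts from the nuclear envelope.

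Chd4 itself averaged 20.8 ± 3.49 RPKM in AdCRE libraries and 75.1 ± 7.75 RPKM in AdGFP libraries, and 56.7 ± 8.37 RPKM in Chd4dPax7ER libraries and 126 ± 6.77 RPKM in Chd4fl/fl libraries (SD, n = 4 each). RPKM scales the reads of a gene by its length and by the reads of the library. Low RPKM values moved in whole-read steps, from which reads were recovered. Summed over the tested genes only, these were 22915647 to 37674521 reads per library in vitro and 6040717 to 6757330 in vivo. Of the satellite cell markers, all 7 were above 0 in every group, with summed levels of 863 to 1201 RPKM in AdCRE libraries, 858 to 1007 RPKM in AdGFP libraries, 613 to 664 RPKM in Chd4dPax7ER libraries and 429 to 528 RPKM in Chd4fl/fl libraries. Genes with at least 0.5 RPKM in at least 4 of the 8 libraries of a table were tested with limma on log2(RPKM + 0.5), and a gene passed at a Benjamini-Hochberg adjusted p under 0.05 over all genes tested. Of the 7 satellite cell markers, 2 were higher and 1 lower in Chd4dPax7ER libraries in limma, where 14.7% and 11.9% of all genes were. In AdCRE libraries 0 of 7 passed, where 0.656% of all genes did. With the replicate number as a block, 3 were lower and 0 higher in AdCRE libraries, where 18.7% and 17.5% of all genes were. In bulk samples, fewer cells of a type and less RNA per cell cannot be told apart.

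Tubb4a stood near 0 in control libraries of both settings. In vitro it measured 1.38, 1.23, 1.29 and 1.46 RPKM in AdCRE replicates 1 to 4, against 0.0867, 0.0758, 0.0705 and 0.0810 RPKM in AdGFP replicates 1 to 4. The lowest AdCRE library lay far above the highest AdGFP library. These values rest on 342 reads over the 4 AdCRE libraries (95% Poisson interval 307 to 380) and 20 reads over the 4 AdGFP libraries (12.2 to 30.9), and intervals on reads cover counting error only. The ratio of mean RPKM was 17.1, and within same-numbered libraries the ratios were 15.9, 16.2, 18.4 and 18.0. In vivo it measured 1.68, 2.34, 4.02 and 1.86 RPKM in Chd4dPax7ER replicates 1 to 4, against 0, 0.28, 0.45 and 0.07 RPKM in Chd4fl/fl replicates 1 to 4. The groups did not overlap here either, and the spread was wider, with Chd4dPax7ER replicate 3 the highest. The reads summed to 146 in Chd4dPax7ER libraries (123 to 172) and 11 in Chd4fl/fl libraries (5.49 to 19.7), and the 0 in Chd4fl/fl replicate 1 allows up to 0.213 RPKM, the value of 3 reads. The ratio of mean RPKM was 12.4. On the log2(RPKM + 0.5) scale, which understates the change of such a low gene, the fold change was 1.67 ± 0.11 in vitro and 2.07 ± 0.30 in vivo (limma SE). Limma voom on the recovered reads, which carries a far smaller offset, gave 3.95 and 3.96. Tubb4a passed the filter on low values only through the AdCRE and Chd4dPax7ER libraries. Because the rise of Tubb4a chose the set, the SEs and read intervals describe its values and do not test the rise.

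**Figure D1:**
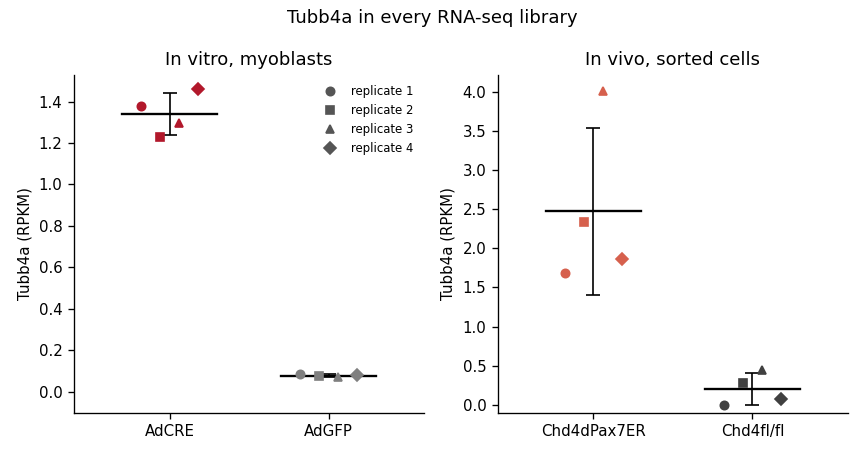
Tubb4a level (y axis, RPKM) in each library, AdCRE beside AdGFP (left panel) and Chd4dPax7ER beside Chd4fl/fl (right panel); points are libraries, horizontal lines are means and bars are SDs of 4 libraries. All AdCRE libraries sit between 1.23 and 1.46 RPKM with AdGFP libraries under 0.1 RPKM, and all Chd4dPax7ER libraries sit at or above 1.68 RPKM with Chd4fl/fl libraries at or below 0.45 RPKM. The y axes differ between the panels.

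Glial cells are known to use Tubb4a, and their markers were read beside it. In vivo, 4 of the 7 tested glial markers rose in Chd4dPax7ER libraries in limma, where 14.7% of all genes rose. The summed level of the 8-gene list was 43.1 to 92.7 RPKM in Chd4dPax7ER libraries and 22.4 to 35.9 RPKM in Chd4fl/fl libraries. Sox10, a transcription factor of Schwann cells and oligodendrocytes, averaged 3.13 ± 0.926 RPKM in Chd4dPax7ER libraries and 0.175 ± 0.132 RPKM in Chd4fl/fl libraries (SD, n = 4 each). Mbp, a myelin protein, averaged 7.15 ± 0.995 RPKM in Chd4dPax7ER libraries and 0.663 ± 0.495 RPKM in Chd4fl/fl libraries (SD, n = 4 each). Gfap was under 0.5 RPKM in every library. Chd4dPax7ER replicate 3, the highest in Tubb4a, had a glial sum of 60.5 RPKM, and Chd4dPax7ER replicate 2, with 2.34 RPKM of Tubb4a, had 92.7 RPKM. The summed endothelial level was 3.82, 4.77, 10.93 and 5.14 RPKM in Chd4dPax7ER replicates 1 to 4. Chd4fl/fl replicates 1 to 4 had 3.06, 3.4, 5.79 and 4.51 RPKM, so replicate 3 was highest in both groups, as in Tubb4a. The summed leukocyte level was 75.8 to 165 RPKM in Chd4dPax7ER and 61.1 to 115 RPKM in Chd4fl/fl libraries. In limma 0 of 1 tested endothelial and 0 of 6 leukocyte markers passed, where 26.6% of all genes did. The part of these 3 lists in the in vivo level of Tubb4a was not tested. In vitro the summed glial level was 6.60, 20.9, 18.2 and 15.999 RPKM in AdCRE replicates 1 to 4, against 6.09, 18.6, 15.4 and 13.3 RPKM in AdGFP replicates 1 to 4, higher in AdCRE in each pair and nearly all of it Erbb3, a receptor. Of the 2 tested markers 0 passed in limma, where 0.656% of all genes passed. Erbb3 passed with the replicate number as a block (log2 fold change 0.23, limma adjusted p 0.00879), where 36.2% of all genes did. Sox10 averaged 0.00311 RPKM in AdCRE libraries and 0.00356 RPKM in AdGFP libraries, Cdh19 was at 0 in all libraries, and Sox10, S100b and Gfap stayed under 0.5 RPKM in every library of both groups. The part of the glial markers in the in vitro level of Tubb4a was not tested either.

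The summed level of 5 markers of fibro-adipogenic progenitors, the connective-tissue progenitors of muscle, was higher after Chd4 loss in both settings. In vivo it was 134 to 237 RPKM in Chd4dPax7ER libraries and 28.0 to 40.2 RPKM in Chd4fl/fl libraries. There 3 of 5 tested genes were higher in limma, where 14.7% of all genes were. In vitro it was 11.2 to 17.0 RPKM in AdCRE libraries and 2.15 to 4.83 RPKM in AdGFP libraries. The only 2 genes tested in vitro were both higher in limma, where 0.516% of all genes were. Those 2 were Ly6a, which codes for the surface antigen SCA1, at 12.4 ± 2.40 RPKM in AdCRE libraries and 2.54 ± 1.06 RPKM in AdGFP libraries, and Col1a1, at 1.28 ± 0.506 RPKM in AdCRE libraries and 0.0625 ± 0.0225 RPKM in AdGFP libraries (SD, n = 4 each). In vitro Dpt was at 0 in every library and Dcn was under 0.5 RPKM in every library. Pdgfra was too low to test in vitro, and stayed under 0.5 RPKM in every AdCRE library but not in every AdGFP library. The part of these markers in the tubulin levels of either setting was not tested.

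The 5 genes whose log2(RPKM + 0.5) followed Tubb4a most closely, by the mean of the Pearson correlations over the 8 in vitro and the 8 in vivo libraries among 11940 genes, were Arhgap45, Efna3, Aatk, Ptp4a3 and Kdelr3. These correlations run over libraries that differ in group, so they describe a shared group difference. Arhgap45 had the highest mean, 0.967, from 0.983 in vitro and 0.950 in vivo. It averaged 1.39 ± 0.200 RPKM in AdCRE libraries and 0.106 ± 0.0533 RPKM in AdGFP libraries, and 3.13 ± 0.580 RPKM in Chd4dPax7ER libraries and 0.247 ± 0.0822 RPKM in Chd4fl/fl libraries (SD, n = 4 each). Efna3, which codes for an ephrin ligand, averaged 5.71 ± 1.296 RPKM in AdCRE libraries and 1.17 ± 0.206 RPKM in AdGFP libraries (SD, n = 4 each). Kdelr3, a receptor that returns proteins to the endoplasmic reticulum, was the most abundant of the 5, with 38.5 ± 2.42 RPKM in Chd4dPax7ER libraries and 15.5 ± 3.19 RPKM in Chd4fl/fl libraries (SD, n = 4 each). Among the other tubulin members the correlation with Tubb4a was highest for Tuba4a, at 0.877 in vitro and 0.875 in vivo, followed by Tubb3 at 0.801 and 0.793, and was negative in both settings for Tubb5, at -0.733 and -0.806.

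Stretches before an annotated start of Tubb4a, Tubb3, Tuba4a and Tubb5 are shown. The first 3 genes were taken because they had the highest log2 fold changes of the tested members in both settings. Tubb5 was taken as the only tested member with negative ones in both. The stretches are the 250 bases before a RefSeq start on GRCm38.p6, written 5′ to 3′ on the gene's strand. They lie at chr17:57087601-57087850 on the minus strand for Tubb4a, at chr8:123411303-123411552 on the plus strand for Tubb3, at chr1:75219295-75219544 on the minus strand for Tuba4a and at chr17:35838302-35838551 on the minus strand for Tubb5. The Tuba4a stretch lies inside the span of its gene, chr1:75214972-75221261, so the start used there is an internal one. Those of Tubb4a, Tubb3 and Tubb5 border their genes. Capitals mark every match on either strand to the GC box (GGGCGG), the CCAAT box, the TATA box (TATAAA) or a REST element. The E-box (CANNTG) was counted too but is not in capitals.
Tubb4a: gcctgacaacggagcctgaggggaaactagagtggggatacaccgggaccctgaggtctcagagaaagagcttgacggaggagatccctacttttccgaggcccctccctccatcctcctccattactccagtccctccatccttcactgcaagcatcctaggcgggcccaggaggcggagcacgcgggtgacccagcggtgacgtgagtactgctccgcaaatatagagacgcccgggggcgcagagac
Tubb3: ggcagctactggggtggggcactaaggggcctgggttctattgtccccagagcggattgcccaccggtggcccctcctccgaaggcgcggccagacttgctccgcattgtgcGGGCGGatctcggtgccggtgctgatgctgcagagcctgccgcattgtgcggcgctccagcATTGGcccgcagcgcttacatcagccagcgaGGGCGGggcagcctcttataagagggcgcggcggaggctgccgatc
Tuba4a: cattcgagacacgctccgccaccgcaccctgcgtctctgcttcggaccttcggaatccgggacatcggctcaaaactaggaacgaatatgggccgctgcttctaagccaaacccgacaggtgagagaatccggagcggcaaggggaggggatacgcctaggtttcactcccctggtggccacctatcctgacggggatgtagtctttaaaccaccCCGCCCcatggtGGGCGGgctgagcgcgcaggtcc
Tubb5: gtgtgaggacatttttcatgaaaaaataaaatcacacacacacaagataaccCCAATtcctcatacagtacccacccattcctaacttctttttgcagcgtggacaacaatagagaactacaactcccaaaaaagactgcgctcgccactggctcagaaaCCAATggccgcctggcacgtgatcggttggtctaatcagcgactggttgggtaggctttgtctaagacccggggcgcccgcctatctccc

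The Tubb4a stretch held none of the 5 motifs searched, and had 14 CpG dinucleotides and a GC content of 61.6%, against a median of 52.4% over 32851 promoters of the same length. Tubb3 held 2 GC boxes and 1 CCAAT box with 21 CpG dinucleotides and 68% GC. Tuba4a held 2 GC boxes and 1 E-box with 20 CpG dinucleotides and 61.6% GC. Tubb5 held 2 CCAAT boxes and 1 E-box, with 10 CpG dinucleotides and 49.2% GC. Of the members not shown, Tubb2a held 2 GC boxes, 1 E-box and the only TATA box, Tuba1a held 1 GC box, 1 CCAAT box and 1 E-box, Tubb4b held 5 CCAAT boxes, 1 GC box and 1 E-box, and Tuba8 held 2 E-boxes. Of all promoters, 66.22% held an E-box, 33.85% a CCAAT box, 32.74% a GC box, 12.37% the TATA box and 0.03348% the REST element. No member with a sequence held the REST element, and no match says only that these letters are absent from this window. Promoter sequences were matched by symbol for 8 of the 10 members, all but Tubb2b and Tubb6.

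Tubb3, the neuronal beta-tubulin, was higher on average after Chd4 loss in both settings. In vivo it measured 12.9, 20.06, 11.66 and 16.2 RPKM in Chd4dPax7ER replicates 1 to 4, against 3.8, 6.01, 4.91 and 9.03 RPKM in Chd4fl/fl replicates 1 to 4. Every Chd4dPax7ER library lay above every Chd4fl/fl library. The log2 fold change was 1.32 ± 0.25 (limma SE), with an adjusted p of 0.00509. In the myoblasts it stood at 9.54, 14.9, 17.4 and 15.2 RPKM in AdCRE replicates 1 to 4, against 4.71, 7.80, 9.88 and 4.84 RPKM in AdGFP replicates 1 to 4. AdCRE replicate 1 fell just under AdGFP replicate 3, so the groups overlapped, but each AdCRE library exceeded the AdGFP library of the same number, by 1.77 to 3.14 times. Limma gave a log2 fold change of 1.05 ± 0.27 with an adjusted p of 0.134, and the adjusted p was 0.00111 with the replicate number as a block. In vitro the numbers pair the samples, since same-numbered libraries deviated together. In vivo 3 of the 4 tested neuronal markers rose, with a summed level of 8.30 to 10.5 RPKM in Chd4dPax7ER libraries and 1.66 to 3.26 RPKM in Chd4fl/fl libraries, most of it Eno2, while Snap25, Syt1 and Elavl4 were at 0 in every Chd4dPax7ER library. In vitro the neuronal sum was 12.9, 15.0, 10.8 and 20.1 RPKM in AdCRE replicates 1 to 4, against 5.86, 8.93, 6.35 and 18.5 RPKM in AdGFP replicates 1 to 4, higher in AdCRE in each pair, with 0 of 5 tested markers passing in limma and 2 of 5 higher with the block (Stmn2 and Eno2). Over all genes tested, 14.7% rose in vivo in limma, and 17.5% were higher in vitro with the block. The part of neuronal RNA in the level of Tubb3 was not tested.

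Tubb2a and Tubb2b are nearly identical neighbours on chromosome 13 whose reads the counting could have split. Their log2 fold changes ran from 0.13 to 0.35 over the 2 settings. Tubb2a measured 167, 166, 154 and 158 RPKM in Chd4dPax7ER replicates 1 to 4, against 120, 154, 134 and 139 RPKM in Chd4fl/fl replicates 1 to 4. The lowest Chd4dPax7ER library, at 154.49 RPKM, was barely above the highest Chd4fl/fl library, at 153.8 RPKM. The log2 fold change of 0.24 ± 0.08 passed with an adjusted p of 0.0477, and when 1 library was left out it passed only without Chd4fl/fl replicate 2, the other 7 fits giving adjusted p-values up to 0.108. Without the filter, without the variance trend or under either rescaling of the libraries the adjusted p was 0.0853 to 0.102. In vitro Tubb2a averaged 73.6 ± 10.9 RPKM in AdCRE libraries and 66.5 ± 6.23 RPKM in AdGFP libraries (SD, n = 4 each; log2 fold change 0.14 ± 0.12, limma adjusted p 0.627). Tubb2b averaged 114 ± 5.43 RPKM in Chd4dPax7ER libraries and 105 ± 11.2 RPKM in Chd4fl/fl libraries (SD, n = 4 each; log2 fold change 0.13 ± 0.08, limma adjusted p 0.273). The in vitro libraries gave 83.9, 66.3, 57.4 and 63.4 RPKM in AdCRE replicates 1 to 4, against 62.4, 53.3, 53.2 and 43.4 RPKM in AdGFP replicates 1 to 4. Each AdCRE library exceeded its AdGFP counterpart, by 1.079 to 1.462 times, although the groups overlapped. The change was 0.35 ± 0.14 on the log2 scale, with a limma adjusted p of 0.295 and of 0.00853 with the replicate block.

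Tubb5, the tubulin with the highest mean RPKM in every group, had lower means after Chd4 loss in both settings. In vivo it measured 276, 204, 260 and 299.5 RPKM in Chd4dPax7ER replicates 1 to 4, against 375, 353, 310.4 and 325 RPKM in Chd4fl/fl replicates 1 to 4. All Chd4dPax7ER libraries were below all Chd4fl/fl libraries. The log2 fold change of -0.40 ± 0.12 passed in limma with an adjusted p of 0.0339, and no longer passed without Chd4dPax7ER replicate 3 or without Chd4fl/fl replicate 1, 2 or 4, where the adjusted p reached 0.0865, nor without the filter (0.0693) or the variance trend (0.0616). In vitro it measured 204, 261, 273 and 298 RPKM in AdCRE replicates 1 to 4, against 279, 338, 408 and 418 RPKM in AdGFP replicates 1 to 4. Every AdCRE library held 0.670 to 0.773 times the level of its same-numbered AdGFP library, and the groups overlapped. In limma the log2 fold change was -0.47 ± 0.16, with an adjusted p of 0.235 and of 0.000818 with the replicate block. Proliferation markers moved the same way. Their summed level was 141 to 275 RPKM in Chd4dPax7ER libraries and 277 to 394 RPKM in Chd4fl/fl libraries, with 2 of 6 genes lower in limma, and 99.4 to 215 RPKM in AdCRE libraries and 190 to 348 RPKM in AdGFP libraries, with 0 of 6 lower in limma and 6 of 6 with the block. Over all genes tested, 11.9% were lower in vivo in limma, and 18.7% were lower in vitro with the block. The part of cell division in the level of Tubb5 was not tested.

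Tubb4b and Tubb6 did not move alike in the 2 settings. Tubb4b, a widely expressed isotype also used in cilia, measured 54.42, 55.06, 48.69 and 53.51 RPKM in Chd4dPax7ER replicates 1 to 4, against 42.56, 42.43, 41.68 and 42.01 RPKM in Chd4fl/fl replicates 1 to 4. The Chd4fl/fl libraries lay within 1 RPKM of each other and all below the Chd4dPax7ER libraries. On the log2 scale it was higher by 0.32 ± 0.06, with a limma adjusted p of 0.00486. In the myoblasts it stood at 68.8, 74.3, 78.1 and 80.8 RPKM in AdCRE replicates 1 to 4, against 79.0, 79.2, 92.5 and 97.2 RPKM in AdGFP replicates 1 to 4. Each AdCRE library was below its AdGFP counterpart, and the groups overlapped. The log2 fold change was -0.20 ± 0.09, with a limma adjusted p of 0.353 and of 0.0116 with the block. Tubb4b overlaps Fam166a on the genome, and the sources used here do not say if the counting used strand.

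Tubb6, a beta-tubulin known to be raised in regenerating and dystrophic mouse muscle, measured 167, 205, 141 and 147 RPKM in Chd4dPax7ER replicates 1 to 4, against 103, 123, 105 and 122 RPKM in Chd4fl/fl replicates 1 to 4. The groups did not overlap. Limma gave a log2 fold change of 0.53 ± 0.12, with an adjusted p of 0.0117. The in vitro libraries gave 104.5, 151, 148 and 139.5 RPKM in AdCRE replicates 1 to 4, against 132, 158, 190.3 and 153 RPKM in AdGFP replicates 1 to 4. Each AdCRE library was below its AdGFP counterpart, and the groups overlapped. The change was -0.22 ± 0.15 on the log2 scale, with a limma adjusted p of 0.523 and of 0.0237 with the block, and the call with the block was lost when pair 1 or pair 3 was left out. In vivo all 9 tested myofibre markers rose. Their summed level was 1256 to 3131 RPKM in Chd4dPax7ER libraries and 306 to 652 RPKM in Chd4fl/fl libraries. Chd4dPax7ER replicate 2 was the highest in vivo library both in that sum and in Tubb6. The same library was also highest in the satellite cell, neuronal, glial, leukocyte, fibro-adipogenic and platelet sums, and lowest in the proliferation sum. In vitro the myofibre sum was 1151 to 4415 RPKM in AdCRE libraries and 891 to 3589 RPKM in AdGFP libraries, with 0 of 9 passing in limma and 7 of 9 higher with the block. Over all genes tested, 14.7% rose in vivo in limma, and 17.5% were higher in vitro with the block. The part of myofibre RNA in the level of Tubb6 was not tested.

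Among the alpha-tubulins, Tuba4a had the clearest difference. Tuba4a is unusual among alpha-tubulins in that its gene encodes no C-terminal tyrosine. In vivo it measured 55.26, 67.87, 58.4 and 65.1 RPKM in Chd4dPax7ER replicates 1 to 4, against 30.54, 32.57, 24.06 and 29.69 RPKM in Chd4fl/fl replicates 1 to 4. The lowest Chd4dPax7ER library was well above the highest Chd4fl/fl library. In limma the log2 fold change was 1.07 ± 0.11, with an adjusted p of 0.000255. In vitro it measured 45.0, 44.2, 38.2 and 38.8 RPKM in AdCRE replicates 1 to 4, against 32.9, 32.2, 31.6 and 26.7 RPKM in AdGFP replicates 1 to 4. It was the only member besides Tubb4a whose in vitro groups did not overlap. On the log2 scale it was higher by 0.42 ± 0.09, with a limma adjusted p of 0.101 and of 0.00123 with the block. Tuba4a overlaps Stk16 and A630095N17Rik on the genome, so reads could be shared between them. Tuba4a is also abundant in platelets: of the platelet markers tested in vivo, 1 of 2 rose (Pf4, 5.32 ± 1.93 RPKM in Chd4dPax7ER libraries and 2.25 ± 0.982 RPKM in Chd4fl/fl libraries, SD, n = 4 each), while Gp9 and the platelet beta-tubulin gene Tubb1 were at 0 in every in vivo library. Over all genes tested in vivo, 14.7% rose in limma. The summed platelet level was 3.23 to 7.98 RPKM in Chd4dPax7ER libraries and 2.68 to 3.96 RPKM in Chd4fl/fl libraries, so the groups overlapped, and its part in the level of Tuba4a was not tested.

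Tuba1a, the alpha-tubulin best known from developing neurons and one of 3 near-identical genes with Tuba1b and Tuba1c, did not pass in either setting. In vivo it measured 140.3, 137, 119 and 140.1 RPKM in Chd4dPax7ER replicates 1 to 4, against 141, 171, 144 and 159 RPKM in Chd4fl/fl replicates 1 to 4. All Chd4dPax7ER libraries lay below all Chd4fl/fl libraries, the nearest pair by less than 1 RPKM. The log2 fold change was -0.19 ± 0.08, with a limma adjusted p of 0.115, and of 0.0464 after rescaling libraries to a common sum and 0.0286 after quantile normalization. In vitro it averaged 107.8 ± 15.1 RPKM in AdCRE libraries and 104 ± 13.2 RPKM in AdGFP libraries (SD, n = 4 each; log2 fold change 0.05 ± 0.13, limma adjusted p 0.908, 95% interval -0.24 to 0.34).

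Tuba8, a divergent alpha-tubulin known from heart, skeletal muscle and testis, was too low to test in either table. In vivo it measured 0.4, 0.4, 0.07 and 0.13 RPKM in Chd4dPax7ER replicates 1 to 4, from 6, 6, 1 and 2 reads, and no read was recovered in the 4 Chd4fl/fl libraries, which allows up to 0.198 to 0.225 RPKM per library. The Chd4dPax7ER values of replicates 3 and 4 lie under that limit. In vitro the reads were 7, 4, 2 and 2 in AdCRE replicates 1 to 4, against 4, 3, 1 and 0 in AdGFP replicates 1 to 4, a difference not detectable at this depth.

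**Figure D2:**
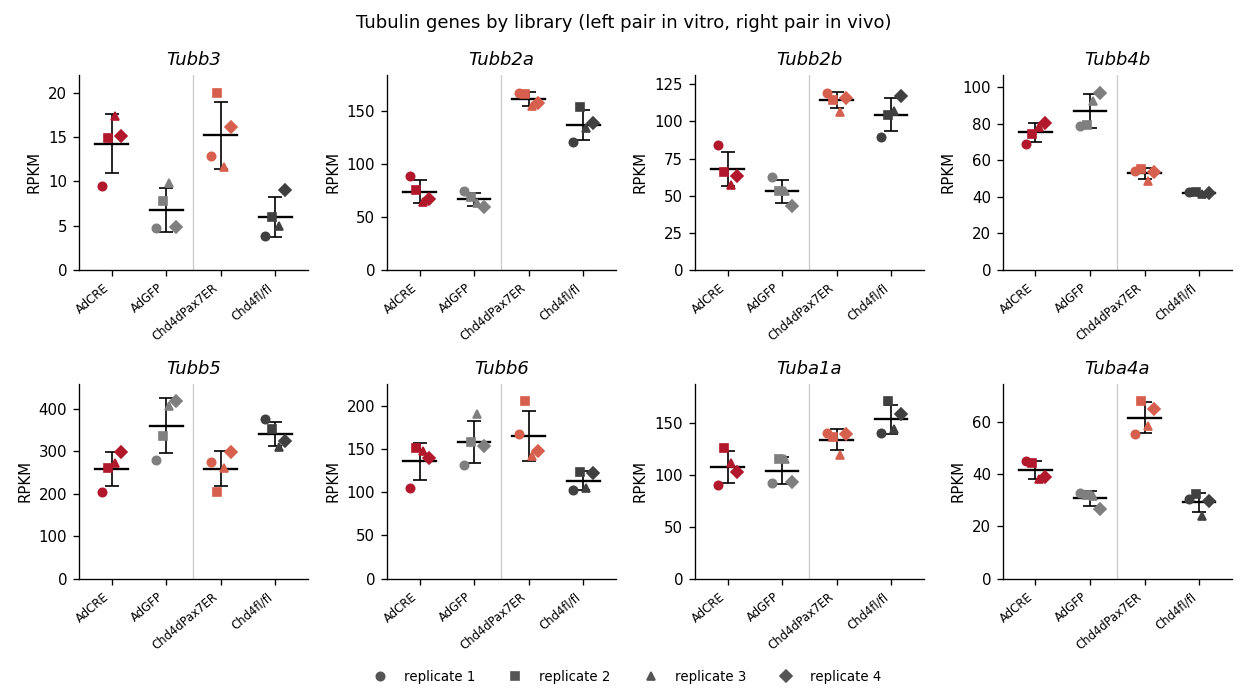
RPKM (y axis) of the 8 tested members other than Tubb4a in every library, with AdCRE beside AdGFP left of the grey line and Chd4dPax7ER beside Chd4fl/fl right of it; points are libraries, lines are means and bars are SDs of 4 libraries. Tubb3 and Tuba4a have higher means in AdCRE and Chd4dPax7ER libraries, Tubb5 has lower means there, and Tubb6 and Tubb4b go one way in vitro and the other in vivo. The 2 tables were normalized separately, so levels are read within a setting.

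Counted together, 6 of the 8 members tested in vivo beside Tubb4a passed in limma, 5 higher (Tubb2a, Tubb3, Tubb4b, Tubb6 and Tuba4a) and 1 lower (Tubb5), where 26.6% of all 13344 genes tested passed, 14.7% higher and 11.9% lower. Their median log2 fold change was 0.28, against -0.02 over all genes tested. The groups of 7 of the 8 did not overlap in vivo, all but those of Tubb2b, and those of 1 of the 8 in vitro, Tuba4a, where 30.3% of all genes tested in vivo and 10.0% in vitro had groups that did not overlap. In vitro 0 of the 8 passed in limma, where 0.656% of 13567 genes passed and 2111 genes had an unadjusted p under 0.05, and 0 passed in limma voom on the recovered reads. With the replicate block 6 of the 8 passed, 3 higher (Tubb2b, Tubb3 and Tuba4a) and 3 lower (Tubb4b, Tubb5 and Tubb6), where 36.2% of all genes passed, 17.5% higher and 18.7% lower, and 5 or 6 passed when 1 pair was left out. The median log2 fold change in vitro was 0.09, against -0.01 over all genes tested. A call in one setting and none in the other does not show that the changes differ, so the change in vitro minus the change in vivo was tested over 11941 genes, of which 4.12% passed, 2.43% with a lower change in vitro. Tubb4b, Tuba4a and Tubb6 passed, all in that direction. Tubb4b differed by -0.52 ± 0.11 with a limma adjusted p of 0.0153, and passed when any 1 of the 16 libraries was left out. Tuba4a differed by -0.64 ± 0.15 with an adjusted p of 0.0236, higher in both settings and by more in vivo, and the call was lost without AdCRE replicate 3 (0.0562) or AdGFP replicate 3 (0.0533). Tubb6 differed by -0.76 ± 0.20 with an adjusted p of 0.0471, a call kept in 2 of the 16 fits that left out 1 library and lost under both rescalings, without the filter and without the variance trend (0.0572 to 0.0645). These fits left out the in vitro pairing. With the block the limma adjusted p was 0.00228 for Tubb4b, 0.00452 for Tuba4a and 0.00472 for Tubb6, where 14.1% of all genes passed. That block also used the in vivo numbers, which do not pair samples. For Tubb3 the difference was -0.27 with a 95% interval of -1.10 to 0.55, and for Tubb5 -0.07 with an interval of -0.52 to 0.38. The block lowered their SEs from 0.39 to 0.23 and from 0.21 to 0.14, and neither passed (limma adjusted p 0.470 and 0.774). Neither a like nor an unlike change of the 2 settings is shown for them.

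**Figure D3:**
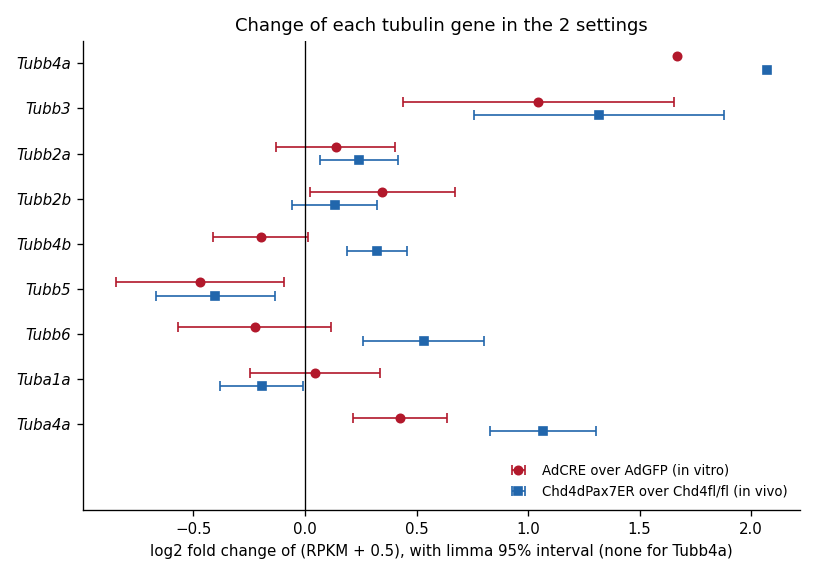
Log2 fold change of (RPKM + 0.5) for each tested member (rows), AdCRE over AdGFP as red circles and Chd4dPax7ER over Chd4fl/fl as blue squares, with 95% intervals from limma for all but Tubb4a; values right of 0 are higher after Chd4 loss. Tubb4a, which chose the set, is drawn without an interval at 1.67 and 2.07, Tubb3 at 1.05 and 1.32, and Tubb4b and Tubb6 have their red and blue points on opposite sides of 0.

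The make-up of the beta-tubulin pool is set by its abundant members. The summed RPKM of the 7 beta-tubulins was 627 ± 46.3 in AdCRE libraries and 732 ± 81.9 in AdGFP libraries, and 771 ± 32.5 in Chd4dPax7ER libraries and 744 ± 33.1 in Chd4fl/fl libraries (SD, n = 4 each). Tubb5 held 41.1 ± 3.61% of it in AdCRE libraries and 49.0 ± 3.99% in AdGFP libraries, and 33.7 ± 4.91% in Chd4dPax7ER libraries and 45.8 ± 3.59% in Chd4fl/fl libraries (SD, n = 4 each). Tubb6 held 21.4 ± 3.67% in Chd4dPax7ER libraries and 15.2 ± 0.963% in Chd4fl/fl libraries, and 21.6% in both AdCRE and AdGFP libraries. Tubb3 held 2.26 ± 0.422% in AdCRE libraries and 0.921 ± 0.2803% in AdGFP libraries, and 1.97 ± 0.477% in Chd4dPax7ER libraries and 0.795 ± 0.288% in Chd4fl/fl libraries (SD, n = 4 each). In spite of its large ratio, Tubb4a held only 0.215 ± 0.0239% in AdCRE libraries and 0.0109 ± 0.00212% in AdGFP libraries, and 0.326 ± 0.157% in Chd4dPax7ER libraries and 0.0273 ± 0.0288% in Chd4fl/fl libraries (SD, n = 4 each). In level, Tubb5 came first and Tubb3, Tubb4a and Tuba8 last in each of the 4 groups by mean RPKM, although Tubb5 overlapped Tubb6 in Chd4dPax7ER libraries and Tubb4a overlapped Tuba8 in Chd4fl/fl libraries. The order in between differed: Tubb6 followed Tubb5 in Chd4dPax7ER libraries and came after Tuba1a and Tubb2a in Chd4fl/fl libraries, where Tuba1a, Tubb2a and Tubb6 each overlapped the next in order. Tuba4a stood above Tubb4b in Chd4dPax7ER libraries and below it in Chd4fl/fl libraries. Of the listed alpha-tubulins, Tuba4a held 28.0 ± 3.59% in AdCRE libraries and 22.9 ± 2.21% in AdGFP libraries, and 31.4 ± 2.24% in Chd4dPax7ER libraries and 15.96 ± 1.43% in Chd4fl/fl libraries (SD, n = 4 each). These shares were described and not tested.

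**Figure D4:**
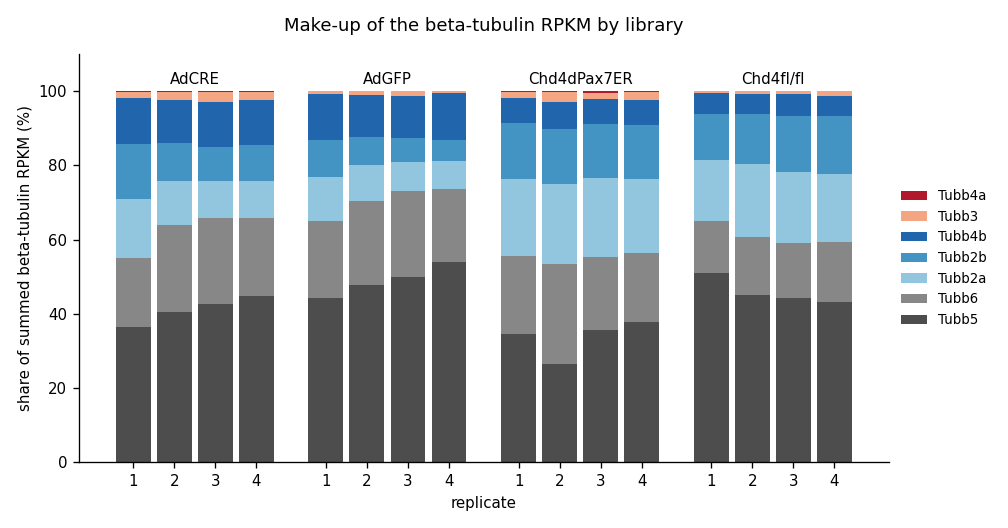
Share of the summed beta-tubulin RPKM (y axis, %) held by each of the 7 beta-tubulin genes in each library (x axis, replicates 1 to 4 of AdCRE, AdGFP, Chd4dPax7ER and Chd4fl/fl). The Tubb5 segment averages 41.1% in AdCRE and 49.0% in AdGFP libraries and 33.7% in Chd4dPax7ER and 45.8% in Chd4fl/fl libraries, and the Tubb4a segment is at most 0.553%.

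The other tubulin genes passed in neither setting in limma, 0 of 6 tested in vitro and 0 of 5 in vivo. With the block 4 of the 6 were lower in AdCRE libraries, where 18.7% of all genes were. These were Tuba1c, at 25.8 ± 1.83 RPKM in AdCRE libraries and 35.3 ± 4.45 RPKM in AdGFP libraries (SD, n = 4 each; log2 fold change -0.44 ± 0.10, limma adjusted p 0.105, and 0.000884 with the block), Tuba1b, the centrosomal gamma-tubulin gene Tubg1, and Tube1, which codes for the centriolar epsilon-tubulin. Tubg1 averaged 18.2 ± 2.37 RPKM in AdCRE libraries and 26.3 ± 3.32 RPKM in AdGFP libraries (SD, n = 4 each). In vivo Tube1 averaged 0.885 ± 0.101 RPKM in Chd4dPax7ER libraries and 1.82 ± 0.722 RPKM in Chd4fl/fl libraries, without passing (SD, n = 4 each; log2 fold change -0.69 ± 0.24, limma adjusted p 0.0575). Tubg2 and Tubd1 did not pass in vitro with or without the block, with log2 fold changes of -0.06 and -0.27. In vivo Tuba1b, Tuba1c, Tubg1 and Tubd1 did not pass in limma, with log2 fold changes of -0.23, 0.10, -0.23 and -0.28.

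Genes whose products fold, modify or bind tubulin were counted from lists. Of 25 tested microtubule-associated proteins, 5 rose and 4 fell in Chd4dPax7ER libraries in limma (median log2 fold change 0.05), where 14.7% of all genes rose and 11.9% fell. In AdCRE libraries 0 of 25 passed, where 0.656% of all genes did, and with the block 7 were higher and 7 lower, where 17.5% and 18.7% of all genes were. Map1a, a neuronal microtubule-stabilising protein, averaged 33.1 ± 5.34 RPKM in Chd4dPax7ER libraries and 9.32 ± 1.41 RPKM in Chd4fl/fl libraries (SD, n = 4 each; log2 fold change 1.77 ± 0.14, limma adjusted p 9.49e-05). In vitro it averaged 9.97 ± 3.15 RPKM in AdCRE libraries and 3.36 ± 1.58 RPKM in AdGFP libraries (SD, n = 4 each; log2 fold change 1.48 ± 0.29, limma adjusted p 0.0754, and 0.000158 with the block). Tppp, which promotes tubulin polymerisation and is known from oligodendrocytes, averaged 2.81 ± 0.511 RPKM in Chd4dPax7ER libraries and 0.682 ± 0.194 RPKM in Chd4fl/fl libraries (SD, n = 4 each; limma adjusted p 0.000893), and was below the filter in vitro at 0.0360 ± 0.0214 RPKM in AdCRE libraries and 0.0192 ± 0.0159 RPKM in AdGFP libraries. Its relative Tppp3 averaged 45.1 ± 1.11 RPKM in Chd4dPax7ER libraries and 29.1 ± 3.39 RPKM in Chd4fl/fl libraries (SD, n = 4 each; limma adjusted p 0.00125), and in vitro its log2 fold change was 0.29 (limma adjusted p 0.495, and 0.00587 with the block). The glial sum given for Tubb4a was higher in the same Chd4dPax7ER libraries, and its part in these levels was not tested.

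Of 15 tested tubulin-modifying enzymes, 3 rose and 3 fell in Chd4dPax7ER libraries in limma, with a median log2 fold change of -0.08, against 14.7% and 11.9% of all genes. In AdCRE libraries 0 of 19 passed, and with the block 5 were higher and 5 lower, against 17.5% and 18.7% of all genes. Svbp, the partner of the vasohibins that remove the C-terminal tyrosine of alpha-tubulin, averaged 111 ± 23.7 RPKM in Chd4dPax7ER libraries and 54.3 ± 7.77 RPKM in Chd4fl/fl libraries (SD, n = 4 each; log2 fold change 1.00 ± 0.16, limma adjusted p 0.00238). Ttll7, a beta-tubulin polyglutamylase, rose by 0.36 ± 0.09 on the log2 scale (limma adjusted p 0.0157), and Atat1, the alpha-tubulin acetyltransferase, fell by 0.71 ± 0.20 (limma adjusted p 0.0300). In vitro the changes were 0.26 for Svbp and 0.24 for Ttll7, which passed only with the block (adjusted p 0.00925 and 0.00593), and -0.02 for Atat1, which passed in neither fit (0.968, and 0.857 with the block). Of the 10 genes of the gamma-tubulin complex and its anchors, 4 fell and 0 rose in Chd4dPax7ER libraries in limma (median log2 fold change -0.24, against -0.02 over all genes), where 11.9% of all genes fell. In AdCRE libraries 0 of 10 passed, and with the block 7 were lower, where 18.7% of all genes were. Nedd1, which targets the complex to the centrosome, averaged 6.83 ± 1.23 RPKM in Chd4dPax7ER libraries and 11.3 ± 0.628 RPKM in Chd4fl/fl libraries (SD, n = 4 each; log2 fold change -0.70 ± 0.13, limma adjusted p 0.00518). Tubgcp4 and Tubgcp6, structural subunits of the ring, both had log2 fold changes of -0.60 in vivo, with limma adjusted p-values of 0.00409 and 0.0381. In vitro Nedd1, Tubgcp4 and Tubgcp6 changed by -0.37, -0.24 and -0.20, passing only with the block (adjusted p 0.00254, 0.0390 and 0.01996). The summed proliferation markers given beside Tubb5 were lower in these same libraries, and their part was not tested. Of the 22 folding cofactors and chaperonin subunits, 1 rose (Tbcel, log2 fold change 0.35) and 1 fell (Tbce, log2 fold change -0.34) in Chd4dPax7ER libraries, 2 of 22 where 26.6% of all genes passed. In AdCRE libraries 0 of 22 passed in limma, and with the block 1 was higher and 3 lower, where 36.2% of all genes passed. The changes in vitro were 0.23 for Tbcel, which passed with the block at an adjusted p of 0.0246, and 0.13 for Tbce, which did not (0.116). Cct4, a subunit of the chaperonin that folds tubulin, averaged 136 ± 7.59 RPKM in Chd4dPax7ER libraries and 154 ± 6.62 RPKM in Chd4fl/fl libraries without passing (SD, n = 4 each; limma adjusted p 0.0578), and its log2 fold change in vitro was 0.0011 (limma adjusted p 0.996).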

How the data were processed

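RNA was sequenced from 16 samples in 4 groups of 4. The authors deposited 1 table of RPKM values per setting, with 46078 genes each, the in vivo values rounded to 2 decimals. The submitters' processing notes name FastQC 0.11.8, cutadapt 1.18, HISAT2 2.1.0, Picard 2.18.15 and the builds mm10 and GRCm38, and the program that counted reads and the gene lengths used are not stated there. RPKM sums per library were 288659 to 326812 in vitro and 286802 to 306114 in vivo, and no 2 libraries were identical.

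Each table was fitted alone with limma 3.58.1 (R 4.3.3, lmFit and eBayes with a variance trend) on log2(RPKM + 0.5) for genes with at least 0.5 RPKM in at least 4 of 8 libraries, 13567 in vitro and 13344 in vivo, with Benjamini-Hochberg adjustment over all of them. The difference of the 2 changes was fitted over all 16 libraries and 11941 genes. The fit was tested on simulated data whose libraries were drawn independently of each other. That simulation held no pairing, so it does not check how the in vitro pairing affects the fit.

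Whole reads were recovered from the RPKM steps, within 0.02 reads in vitro for 13565 of 13567 tested genes. In vivo, where 99.12 to 99.49% of the values checked in a library lay within 0.15 reads of a whole number, they were recovered for 13221 of 13344. They are the smallest whole numbers that fit, so a common factor is possible. Limma voom on these reads was an alternative chosen after seeing the data. The floor of a gene without reads is 3 reads per library.

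Deviations of same-numbered libraries from their group means correlated at 0.711 to 0.856 in vitro, so the number pairs those libraries, and at -0.0967 to 0.0499 in vivo, where it does not. The block was therefore read beside the in vitro results.

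The members, the marker and partner lists and the tests were chosen with earlier results of these data known, so the members' patterns are no independent evidence. Named genes are all members, the other tubulin genes that passed the filter, the 3 genes of each partner list with the smallest p in either setting, and the 5 genes most like Tubb4a. Pf4, Gp9, Sox10, Mbp, Gfap, Cdh19, S100b, Erbb3, Ly6a, Col1a1, Dcn, Dpt, Pdgfra, Eno2, Stmn2, Snap25, Syt1 and Elavl4 were named from the marker lists after their values were seen. Promoter sequences and gene positions are from RefSeq on GRCm38.p6.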

Additional observations from a re-analysis of the deposited data

Results flagged for a closer look

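Tuba1a measured 119.41 RPKM in Chd4dPax7ER replicate 3, set apart from the other 3 Chd4dPax7ER libraries by a gap of 0.852 of the group's range, above Dixon's 95% limit for 4 samples. Of 40 groups of 4 examined, this was the only one set apart in this way, and chance sets apart about 5% of groups. For Tubb4b the change in vitro minus the change in vivo was -0.52 on the log2 scale, with log2 fold changes of -0.20 for AdCRE over AdGFP and 0.32 for Chd4dPax7ER over Chd4fl/fl. For Tubb6 it was -0.76, with -0.22 and 0.53. For Tuba4a it was -0.64, with 0.42 and 1.07. These 3 differences passed the test of the difference itself, and the 2 settings also differ in culture, injury, depth and the way Chd4 was removed, which cannot be told apart here.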

How the results depend on the processing

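Against 0 of 8 members that passed in vitro, 6 passed with the replicate block, 3 higher and 3 lower, and 0 passed under the other 8 settings. In vivo, where the numbers do not pair the samples, 4 passed with the replicate block, against 6 without it, and the calls of Tubb2a and Tubb5 were lost (adjusted p 0.0801 and 0.0556), as 21.6% of all genes passed. The block changed no call of the difference between settings. With 1 library left out, 0 passed in vitro, 4 to 5 passed in vivo, and 1 to 3 members differed between settings. Tuba1a in vitro ranged from -0.033 to 0.13 and turned negative without AdCRE replicate 2 or AdGFP replicate 1 or 4. The difference of Tubb5 ranged from -0.19 to 0.040 and turned positive without AdCRE replicate 1, AdGFP replicate 4 or Chd4dPax7ER replicate 4. The cause was not tested.

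The log2 fold change of Tubb4a was 3.01 in vitro and 3.32 in vivo with a pseudocount of 0.1, and 1.12 and 1.504 with 1. After rescaling to a common sum it was 2.67 and 3.01. That rescaling moved the median over all genes tested only from -0.006 to -0.03 in vitro and from -0.02 to -0.07 in vivo. It also made the values larger against the pseudocount, so the shift of Tubb4a is not read as an effect of the library sums. With every alpha-tubulin gene in the pool, Tuba4a held 18.7% in AdCRE and 13.4% in AdGFP libraries, and 21.2% in Chd4dPax7ER and 10.1% in Chd4fl/fl libraries. In vivo depth leaves Tubb4a with 0 to 6 reads per Chd4fl/fl library, so its ratio there is loosely known, and levels of near-identical or overlapping tubulin genes depend on read assignment, which the sources do not describe.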
